A study of Arabidopsis thaliana with 54 samples.

Results

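The microRNAs and other small RNAs of Arabidopsis thaliana seedlings were compared between long day and short day at ZT20, that is 20 h after lights on (ZT, Zeitgeber time). Of the 54 libraries in the series, 6 carried these labels: long day (LD) replicates A, B and C, and short day (SD) replicates A, B and C. Seedlings of all groups were of the Columbia 0 wild-type genotype and were pulverized whole, with shoot, hypocotyl and root together. All were stratified for 48 h, raised for 10 days with 12 h of light, moved on day 11 and collected on day 13. Long day gave 16 h of light, so at ZT20 those seedlings had been in the dark for 4 h. Short day gave 8 h of light, so the short-day seedlings had been in the dark for 12 h. At that clock hour the long-day seedlings were thus in the middle of a night of 8 h and the short-day seedlings late in a night of 16 h, and photoperiod and hours of darkness cannot be told apart in this comparison. Equinox-day seedlings (ED, 12 h of light, 8 h of darkness at ZT20) and short-day seedlings at ZT12 (4 h of darkness) served for comparison, each with 3 libraries. The table holds small RNA features and no protein-coding marker genes, so the labelled tissue was not checked against markers.

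Plant microRNAs are cut as short duplexes from hairpin transcripts of MIR genes by a Dicer-like enzyme. One strand of the duplex is loaded into an Argonaute protein and guides it to messenger RNAs with near-perfect complementarity, which are then sliced or held back from translation. The miR169 family is known for silencing subunits of the NF-Y transcription factor, miR395 for silencing sulfate assimilation genes, and miR398 for silencing copper/zinc superoxide dismutases. The circadian clock and the length of the day set the daily phase of many plant transcripts. The mature features are named by the strand they come from, the 5p or the 3p arm of the hairpin.

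The sequences shown first are those of miR169f-3p, the 1 microRNA called below, and of some features that were not called. Differences between near-identical family members decide what a count can mean. The sequences were read from the RefSeq annotation of TAIR10.1, in which all 193 mature names of the 149 tested microRNA features were matched. Capitals mark the seed, bases 2 to 8 from the 5′ end, and features are grouped by shared seed. The first, miR169f-3p, comes from MIR169f (AT3G14385, a microRNA gene) at chr3:4805713-4805733 on the minus strand, where no other gene is annotated. The miR395 features come from 6 loci on chromosome 1, and miR398a-3p from AT2G03445 at chr2:1041012-1041032 on the plus strand. The last pair comes from AT5G66045 at chr5:26411594-26411614 on the minus strand (miR170-3p) and from AT3G51375 at chr3:19073521-19073541 on the plus strand (miR171a-3p).
miR169f-3p: gCAAGUUGaccuuggcucugc
miR395a/d/e: cUGAAGUGuuugggggaacuc
miR395b/c/f: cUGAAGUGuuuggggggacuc
miR398a-3p: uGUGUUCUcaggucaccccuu
miR398b/c-3p: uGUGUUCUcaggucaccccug
miR170-3p: uGAUUGAGccgugucaauauc
miR171a-3p: uGAUUGAGccgcgccaauauc
Counting positions from 1 at the 5′ end, miR395a/d/e and miR395b/c/f differ by A17G, miR398a-3p and miR398b/c-3p by U21G, and miR171a-3p and miR170-3p by C12U and C14U. How reads matching several places were counted was not given in the sources used here, which leaves uncertain the split of counts between such neighbours.

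The deposited counts summed to 2006549, 2090514 and 1744535 in the long-day libraries and to 2373722, 2994808 and 2822481 in the short-day libraries, outside 1 entry named genome. All 3 short-day totals lay above the long-day totals (exact two-sided permutation p = 0.1, the smallest that 3 against 3 allows). The genome entry held 88.5% to 90.2% of all counts in long day and 83.7% to 88.9% in short day. MicroRNAs made up 10.6% ± 0.616 (SD, n = 3) of the remaining counts in long day and 9.47% ± 0.879 (SD, n = 3) in short day, a difference that did not pass the exact permutation test (p = 0.2). With the genome entry in the denominator the order turned, to 1.15% in long day and 1.33% in short day (exact permutation p = 0.4). The labels do not say whether replicates were separate cultures, so each p-value measures the spread among libraries. The permutation tests take that spread from these 6 libraries, and the main edgeR fit used below takes it from all 18 groups. Fewer cells of a type cannot be told apart from less RNA per cell.

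Some libraries outside ZT20 stood apart from their labels on the features that differ at ZT20, measured as the mean log2 CPM (counts scaled to a fixed library total) of the features called higher in long day minus that of the features called lower. At other times 12 long-day libraries lay between 0.48 and 1.25 on this scale, and 11 short-day libraries between -3.10 and -1.85. The libraries labelled LD ZT24 A and B both lay below 0, down to -1.22 in B, while LD ZT24 C lay at 1.62. Those labelled SD ZT24 lay at 0.41 to 0.76, and the one labelled SD ZT4 A at 0.23. Results are therefore also given without 7 libraries, the 3 of LD ZT24, the 3 of SD ZT24 and SD ZT4 A. Within ZT20, SD replicate A lay at -59.0 on the first principal component of all libraries, against 3.31 and 3.52 for the other two, and LD replicate C at -1.18, against 53.6 and 40.7 for LD A and B.

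Of the microRNAs, miR169f-3p alone differed between long and short day at ZT20 past the threshold, and it was higher in long day. Its level was 164, 171 and 170 CPM in the long-day libraries and 24.1, 43.0 and 39.7 CPM in the short-day libraries. The groups did not overlap, and the lowest long-day library lay well above the highest short-day library. The means were 168 ± 3.63 and 35.6 ± 10.1 CPM (SD, n = 3 each), a 4.72-fold difference. The log2 fold change was 2.24 ± 0.40 (standard error), with a 95% interval of 1.43 to 3.04 (adjusted p = 0.00127, quasi-likelihood test of edgeR, Benjamini-Hochberg adjusted over 8869 features). Thus 1 of 149 tested microRNAs was called, in a comparison that called 1.23% of all features. Leaving out any 1 of the 6 libraries gave log2 fold changes from 1.94 to 2.27 with adjusted p from 0.0108 to 0.0422. Without the 7 libraries at ZT24 and ZT4 it was 2.23 (adjusted p = 0.000328). With only these 6 libraries in the fit and replicate letters as a block, the adjusted p was 0.0658.

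Nearly all of the mature counts assigned to the MIR169f hairpin fell on its 3p arm. Shown is the stretch from the start of the annotated 5p arm to the end of the 3p arm. It covers 107 nt at chr3:4805713-4805819 on the minus strand of TAIR10.1. Both arms are in capitals, and the fold of the 65 nt between them was not computed.
MIR169f hairpin: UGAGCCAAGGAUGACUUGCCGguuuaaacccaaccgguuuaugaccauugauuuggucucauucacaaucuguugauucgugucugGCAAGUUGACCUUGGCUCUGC
The 3p feature held 334, 416 and 372 counts in the long-day libraries and 64, 103 and 92 in the short-day libraries. The 5p arm, the strand known to target NF-Y subunits, is counted in a joined feature with 3 other loci of the same mature sequence, miR169d/e/f/g-5p, and held 1 count in all of long day and 2 in all of short day. Whether reads with several matching loci were kept in full is unknown, and its part in this low count was not tested. Over the 54 libraries the 3p and the joined 5p feature held 11860 and 9 counts. The other miR169 features, all untested because too rare, held between 0 and 5 counts per library, with miR169b-3p the most counted at 2 in long day and 7 in short day.

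The hour of the highest mean of miR169f-3p differed between photoperiods, a description with no test. In long day its mean was 94.0, 77.6, 118, 165, 168 and 104 CPM at ZT 4, 8, 12, 16, 20 and 24. In equinox day it was 86.9, 134, 160, 98.7, 69.5 and 43.9 CPM at the same times. In short day it was 82.5, 57.8, 57.9, 37.2, 35.6 and 51.2 CPM. The ZT24 means of long and short day and the ZT4 mean of short day include the libraries that stood apart, and are given as labelled; whether labels were exchanged was not tested. At short day ZT4 the library labelled A held 56.5 CPM, against 69.8 and 121 CPM in B and C. As labelled, the highest mean fell at ZT20 in long day, at ZT12 in equinox day and at ZT4 in short day. In long day ZT16 (165 ± 14.6 CPM, SD, n = 3) and ZT20 (168 ± 3.63 CPM) overlapped. The short-day mean at ZT4 was raised by library C, so neither hour is firmly placed. Against short day, the long-day log2 fold change was 0.19 at ZT4, 0.42 at ZT8, 1.03 at ZT12, 2.15 at ZT16, 2.24 at ZT20 and 1.03 at ZT24. It passed the threshold at ZT16 (adjusted p = 0.000285, where 3.36% of all features were called higher) and ZT20 and at no other time.

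**Figure D1:**
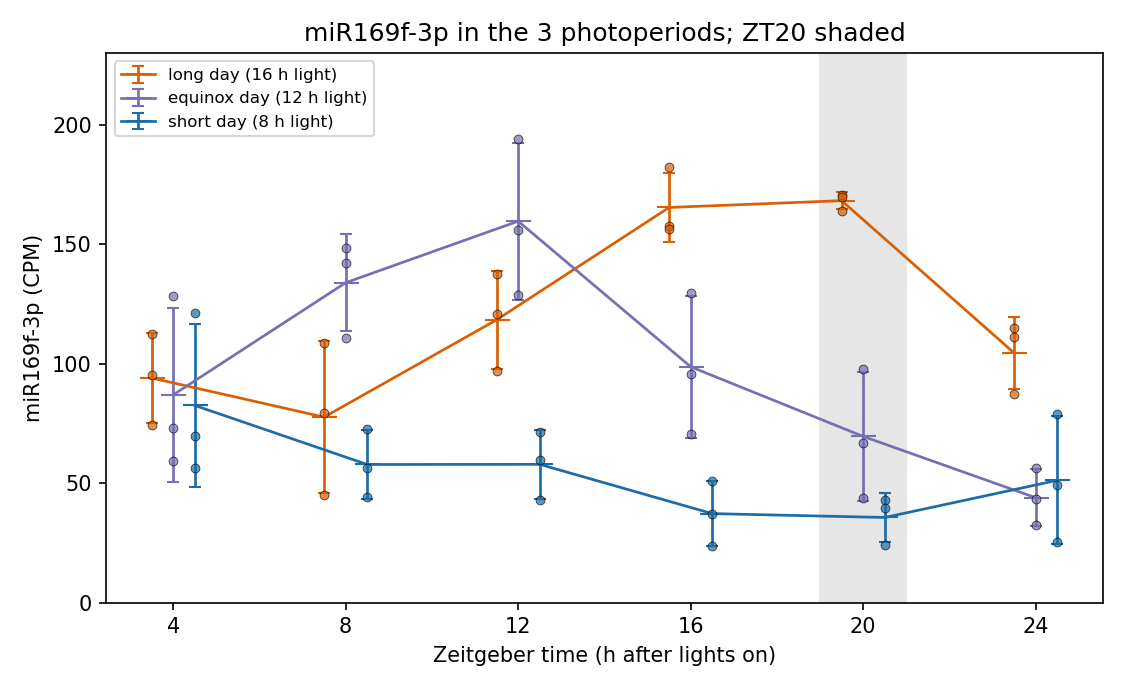
Level of miR169f-3p in CPM (y axis) against Zeitgeber time in hours (x axis) for long, equinox and short day. Points are libraries, horizontal ticks joined by lines are means of 3 and bars are 1 SD; at ZT20, shaded, the long-day libraries lie at 164 to 171 CPM and the short-day libraries at 24.1 to 43.0 CPM.

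At ZT20 the equinox-day libraries held 97.9, 43.9 and 66.8 CPM of miR169f-3p, between the other photoperiods. These 3 libraries overlapped neither long day nor short day. The log2 fold change of long over equinox day was 1.27 ± 0.39 (adjusted p = 0.0913) and that of equinox over short day 0.97 ± 0.39 (adjusted p = 0.375), both in edgeR's quasi-likelihood test and neither past the threshold. These comparisons share libraries with the main one, so the values stand side by side only.

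The 11 microRNAs next in order of p did not pass the threshold, and they are given as values by their roles. Those of sulfate assimilation are given first. miR395a/d/e held 63.8, 67.3 and 59.4 CPM in long day and 41.8, 20.5 and 22.5 CPM in short day. miR395b/c/f held 124, 101 and 118 CPM in long day and 69.7, 54.3 and 47.9 CPM in short day. In both, every long-day library lay above every short-day library, with log2 fold changes of 1.17 ± 0.46 (adjusted p = 0.238) and 1.00 ± 0.43 (adjusted p = 0.284). Equinox-day levels were 53.9, 34.0 and 49.7 CPM for miR395a/d/e and 125, 78.3 and 106 CPM for miR395b/c/f, the second within the long-day range in 1 of 3 libraries. With the sequences of the 2 features separated by 1 base and the counting rule unknown, their counts cannot be taken as independent evidence.

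Of the copper group, miR398a-3p held 78.6, 88.6 and 69.9 CPM in long day and 39.9, 49.3 and 28.1 CPM in short day, again without overlap (log2 fold change 1.01 ± 0.44, adjusted p = 0.300). Its near-identical neighbour miR398b/c-3p was far more abundant and its groups overlapped. It held 5871, 6023 and 3893 CPM in long day and 3465, 5275 and 2033 CPM in short day (log2 fold change 0.55 ± 0.48, adjusted p = 0.620). miR408-3p, which targets copper proteins such as plantacyanin and laccases, held 1017, 995 and 681 CPM in long day and 546, 669 and 602 CPM in short day (log2 fold change 0.57 ± 0.47, adjusted p = 0.596).

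Higher values in long day were also seen for miR858a, a regulator of MYB factors of flavonoid synthesis, at 20.1, 18.1 and 14.2 CPM against 9.04, 10.9 and 8.21 CPM (log2 fold change 0.89 ± 0.41). The groups did not overlap, while those of miR858b did (13.3, 15.6 and 9.14 against 10.9, 5.85 and 3.89 CPM). Both mature sequences share 20 bases at an offset of 1. The 5p strand of miR159b, the passenger of a family that targets GAMYB-like factors, held 19.2, 17.2 and 13.7 CPM in long day and 4.90, 12.9 and 7.34 CPM in short day (log2 fold change 0.99 ± 0.50).

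The other 6 had lower values in long day. miR170-3p, of the family that targets HAM-type GRAS transcription factors, rested on 3, 2 and 0 counts in long day against 13, 12 and 3 in short day (log2 fold change -2.24 ± 0.88, adjusted p = 0.240), and its groups overlapped. miR841a-3p rested on 5, 4 and 4 against 15, 16 and 3 counts, likewise overlapping. At this depth such features could not show a smaller difference. miR5634 held 7, 3 and 4 counts in long day and 17, 11 and 14 in short day, without overlap. It lies opposite to an exon of AT4G30750. miR840-5p held 5, 10 and 7 counts against 15, 20 and 16. It lies within an exon of AT2G02750 on the same strand, so that fragments of that transcript cannot be told apart from the microRNA. miR5595a/miR5995b joins 2 loci on opposite strands, of which the miR5595a locus lies within an exon of AT2G23550 on the same strand. It was at 56.5, 48.8 and 53.0 CPM in long day and 82.1, 99.0 and 77.7 CPM in short day (log2 fold change -0.71 ± 0.37, adjusted p = 0.393). miR861-3p was at 9.33, 8.20 and 8.22 against 11.7, 17.1 and 19.4 CPM (log2 fold change -0.90 ± 0.48, adjusted p = 0.394).

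**Figure D2:**
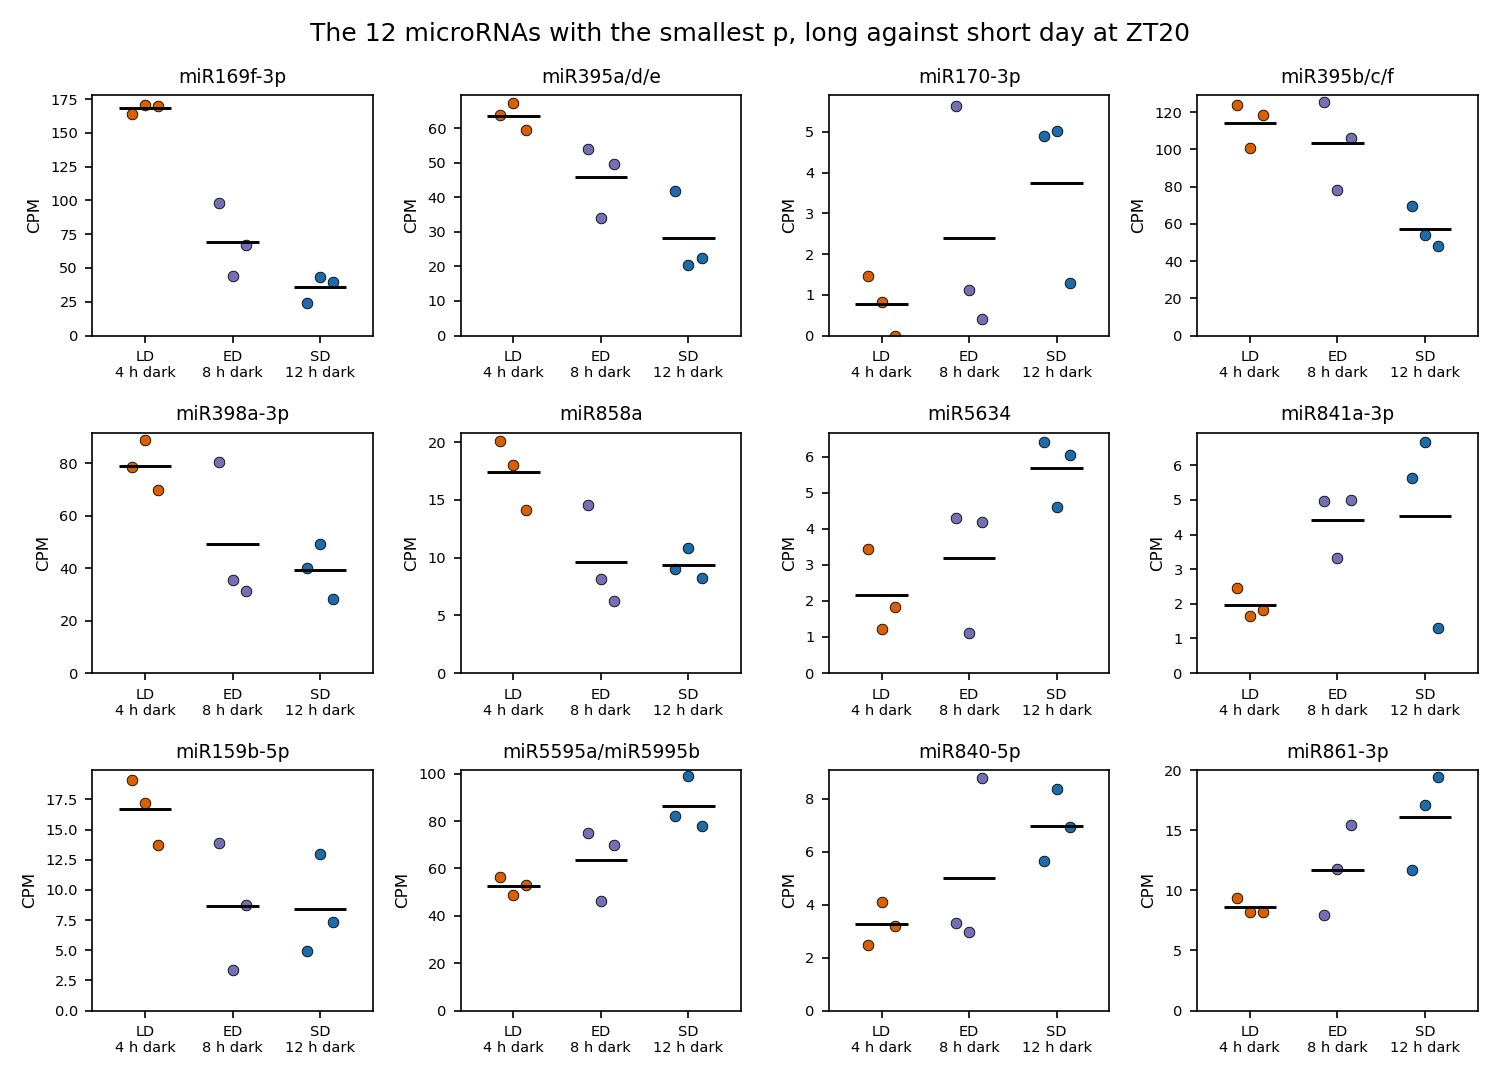
CPM at ZT20 (y axis, each panel on its own scale from 0) of the 12 microRNAs with the smallest p, in long day (4 h dark), equinox day (8 h dark) and short day (12 h dark). Points are libraries and lines are means of 3; miR169f-3p, the first panel, is the one past the threshold.

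Across all 149 tested microRNAs the comparison held few differences. At an unadjusted p below 0.05 there were 8 microRNAs (5 higher and 3 lower), 5.37% of those tested, against 13.8% of all features (7.28% higher and 6.52% lower). Long-day and short-day ranges did not overlap in 15 microRNAs with long day above and in 24 with long day below, where the same held for 14.7% and 10.1% of all features. The median log2 fold change was -0.15 over microRNAs, with 61 of 149 above 0, and 0.05 over all features. Without TMM factors, which scale library totals, the 2 medians became 0.18 and 0.38, so the sign of the microRNA median depends on the scaling. The median standard error of a microRNA was 0.46, which limits what 3 libraries a group can show.

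The microRNAs were then read by the process that their family is known to regulate, as 15 lists and a rest. The lists go by family number and hold partner strands too, so a median does not describe the targeting strands alone. Of all members miR169f-3p was the 1 called. In 10 of these 16 sets the sign of the median changed with the scaling, so directions are named only with that range. The 12 tested features of the families miR156 and miR157, known for targeting SPL factors of the juvenile-to-adult transition, had a median of -0.35. Of these 12, partner strands included, 11 were below 0. Without TMM factors it was -0.07 with 7 of 12 below 0. The most abundant, miR156a/b/c/d/e/f-5p, held 2932, 3301 and 3755 CPM in long day and 5870, 4707 and 4435 CPM in short day (log2 fold change -0.59 ± 0.37, adjusted p = 0.475), without overlap. miR157a/b-3p, the partner strand of the related miR157, had a log2 fold change of -0.35 ± 0.38. The AP2-targeting miR172, which acts opposite to miR156, had 3 of 5 features tested and a median of -0.20 (0.02 without TMM factors), with miR172b/e-5p at 0.30 ± 0.62 and miR172a/b-3p at -0.20 ± 0.76.

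Lists of hormone and meristem functions held no called member. The 6 features of miR159 and miR319 had a median of 0.05 (-0.04 with DESeq2 size factors), with miR159a at -0.03 ± 0.39 and miR159b-3p at 0.26 ± 0.41. The 11 features of auxin response, among them miR167a/b-5p (-0.32 ± 0.48) and miR167c-3p (0.01 ± 0.37), had a median of -0.23 (0.07 without TMM factors). The 14 features of meristem and organ patterning had a median of 0.13 (0.03 to 0.43 over the 4 scalings). In that list miR166a/b/c/d/e/f/g-3p, which targets class III HD-ZIP factors, held 5445, 4861 and 3461 CPM in long day and 5330, 8325 and 6438 CPM in short day. Its log2 fold change was -0.55 ± 0.31 (adjusted p = 0.425) with overlapping groups. The growth-factor regulator miR396b-5p was at 0.30 ± 0.36.

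In the set of miR169 to miR171 the median was -0.53 (-0.61 to -0.18 over the scalings), with 2 of 7 tested members above 0, and miR169f-3p was 1 of those. The 9 tested features of tasiRNA triggers and PPR regulators had a median of -0.20 (0.11 without TMM factors), with miR161.1 at -0.20 ± 0.34 and miR390a-3p at -0.52 ± 0.36. The 7 features of families that target the small RNA pathway itself, partner strands included, had a median of 0.02 (-0.09 with DESeq2 size factors). Of these, miR162a/b-3p, a regulator of the Dicer-like enzyme, was at -0.18 ± 0.36 and miR403-3p, which targets an Argonaute, at -0.35 ± 0.32.

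Among nutrient lists, the 6 tested copper features had a median of 0.42 (0.32 to 0.76) and 5 of 6 were above 0, and the 2 sulfate features described above had a median of 1.08 (0.96 to 1.35). Of the 8 phosphate features 2 were tested, miR827 at -0.79 ± 0.55 and miR399b/c-3p at 0.39 ± 0.39. Families that regulate NLR immune receptors had a median of -0.48 (-0.57 to -0.13) over 3 features, among them miR472-3p at -0.48 ± 0.40 and miR825 at -0.48 ± 0.36. Because miR472-3p lies within an exon of AT1G12290 on the same strand, fragments of that transcript cannot be told apart from it. The 4 features of miR158 and miR163 had a median of -0.19 (0.11 without TMM factors), with miR158a-3p at -0.22 ± 0.31 and miR158a-5p at -0.45 ± 0.36. Families grouped by number alone gave medians of -0.09 over the 39 features from miR771 to miR870 and -0.22 over 22 features with later numbers. These became 0.20 and 0.11 without TMM factors. In the first, miR845a held 589, 638 and 565 CPM in long day and 818, 1309 and 1198 CPM in short day without overlap (log2 fold change -0.89 ± 0.49, adjusted p = 0.409), and miR846-3p was at 0.18 ± 0.31. In the second, miR5026 was at -0.46 ± 0.37 and miR3932b-5p at -0.18 ± 0.45. The 2 tested features of the remaining families had a median of -0.14 (0.16 without TMM factors).

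**Figure D3:**
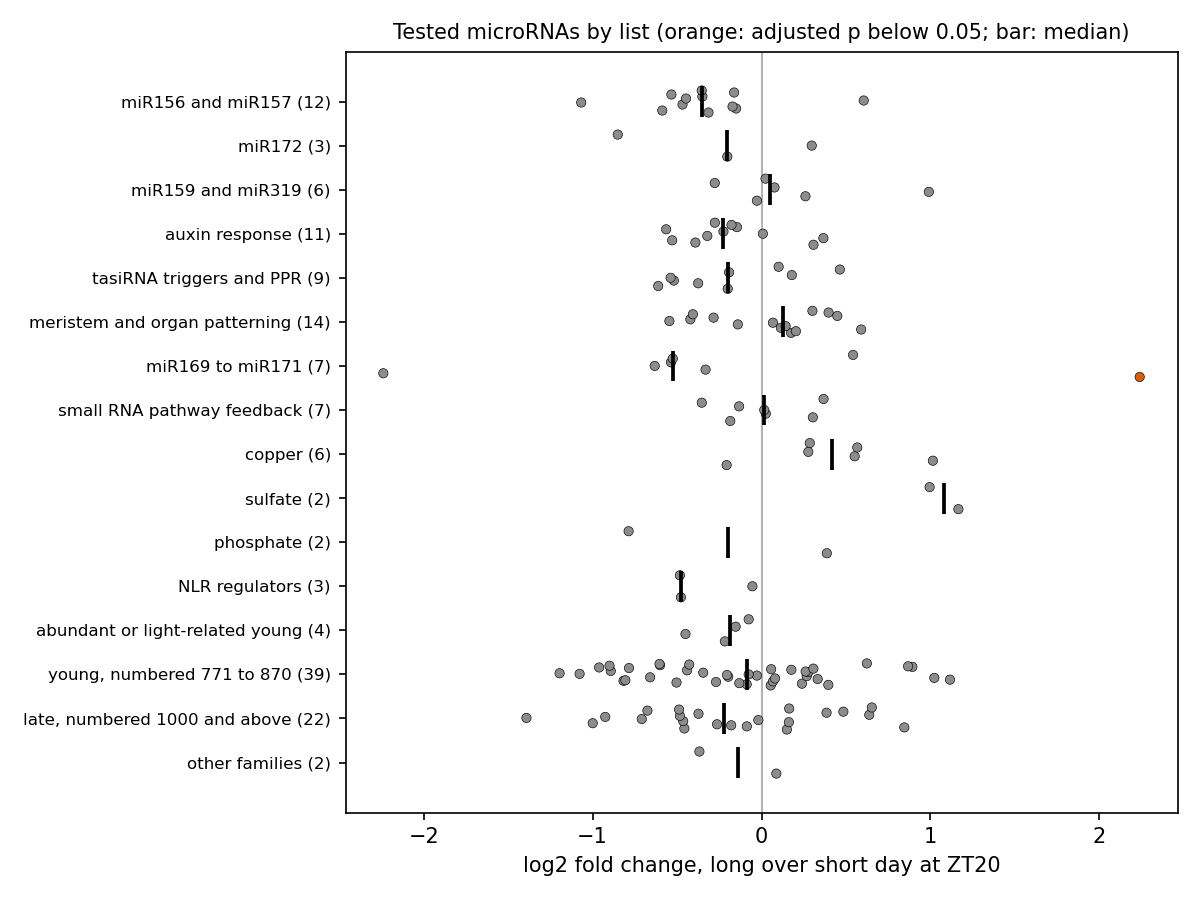
Log2 fold change of long over short day at ZT20 (x axis) for each tested microRNA, by list (y axis, number tested in parentheses). Points are microRNAs, bars are list medians and the orange point is miR169f-3p at 2.24; the medians shift to the right by about the same step without TMM factors.

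Of the most abundant microRNAs none was called. The 8 with the highest mean CPM held 75.8% of the CPM of tested microRNAs, and miR161.1, a regulator of PPR transcripts, held 33.9%. miR161.1 was at 38033, 30781 and 25171 CPM in long day and 23511, 46202 and 38254 CPM in short day. miR158a-3p was at 10903, 11410 and 10164 CPM in long day and 12760, 13213 and 11783 CPM in short day. The short-day libraries of miR158a-3p all lay above the long-day libraries, and its log2 fold change was -0.22 with a 95% interval of -0.83 to 0.40, which covers both signs. miR162a/b-3p was at 9535, 8419 and 6389 CPM against 7139, 9385 and 11148 CPM, and miR5026 at 3271, 3048 and 3476 CPM against 3970, 5145 and 4393 CPM. Of the 8, miR158a-3p, miR156a/b/c/d/e/f-5p and miR5026 did not overlap between the groups, each with every long-day library below every short-day library. The same held for 16.1% of tested microRNAs and 10.1% of all features.

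At ZT20 the equinox-day mean lay between the long-day and short-day means in 50 of 149 microRNAs. It lay above both in 83 and below both in 16. The share over all features and the counts under other scalings are not given here. These counts therefore show nothing about the order of the photoperiods. Equinox replicate A was the highest of its 3 libraries in 110 of 149. The median coefficient of variation over microRNAs was 38.8% in equinox day, 18.4% in long day and 23.9% in short day. Long against equinox day called 0 microRNAs (1.60% of all features called; 7 microRNAs at an unadjusted p below 0.05, and 1 called with DESeq2), and equinox against short day called 0 (0.304% of all features; 1 microRNA at an unadjusted p below 0.05, and 0 with DESeq2).

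To ask whether the difference at ZT20 departs from that at the other times, the long-minus-short difference at ZT20 was set against its mean over the 5 other times. edgeR called no feature (0% of all features), while 590 features, 3 of them microRNAs, had an unadjusted p below 0.05, and DESeq2 called 0 microRNAs. For miR169f-3p the difference was 1.27 ± 0.42 larger at ZT20 on the log2 scale (adjusted p = 0.615, edgeR), and 1.34 ± 0.42 without the 7 libraries that stood apart or shared their group (adjusted p = 0.690). The next were miR829-3p.1 at 1.66 and miR391-3p at 0.92, followed by miR866-3p at -0.86 and miR158a-5p at -0.69. For miR391-3p the long-over-short log2 fold change was -0.19 at ZT20 and, as labelled, between -1.40 and -0.76 at every other time. At ZT20 miR391-3p was at 27.5, 24.2 and 32.0 CPM in long day and 38.0, 35.9 and 21.6 CPM in short day, with overlap. At ZT12 its means were 24.2 CPM in long day and 63.9 CPM in short day.

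Setting the same long-day libraries against short day at ZT12 compares seedlings after an equal 4 h of darkness. The groups then differ in clock hour, ZT20 against ZT12, so photoperiod and clock hour cannot be told apart in this comparison. In this comparison 3.99% of all features (2.11% higher and 1.88% lower) and 5 of 149 microRNAs were called. The 5 are named because they are few, and miR390b-3p and miR156f-3p, which no part of the naming rule gives, were chosen after their values were seen. miR390b-3p, the partner strand of a trigger of trans-acting siRNAs, was at 36.8 ± 5.87 CPM in long day ZT20 and 9.49 ± 2.85 CPM in short day ZT12 (log2 fold change 1.95 ± 0.45, adjusted p = 0.00851). miR169f-3p was at 168 ± 3.63 against 57.9 ± 14.4 CPM (1.54 ± 0.39, adjusted p = 0.0161). miR3932b-5p was at 318 ± 129 against 107 ± 22.6 CPM (1.58 ± 0.47, adjusted p = 0.0414). It lies within an exon of AT4G13575 on the same strand, so fragments of that transcript cannot be told apart from the microRNA. Lower were miR5634, at 2.17 ± 1.14 against 9.78 ± 2.05 CPM (-2.17 ± 0.63, adjusted p = 0.0391), and miR156f-3p, at 21.3 ± 13.9 against 101 ± 29.5 CPM (-2.25 ± 0.66, adjusted p = 0.0414). Each mean is over 3 libraries, and each adjusted p is from edgeR's quasi-likelihood test. In short day at ZT20, miR390b-3p was at 24.9, 35.5 and 37.1 CPM and miR3932b-5p at 184, 484 and 415 CPM, both overlapping long day at ZT20. miR169f-3p was called against short day at the same hour and also at the same time in darkness, in comparisons that share the long-day libraries. Against ZT12 it was not called with only the libraries of the groups compared (log2 fold change 1.53, adjusted p = 0.0857) or without a filter on low counts (1.48, adjusted p = 0.604). With only the groups compared the number of called microRNAs was 0, while without the 7 libraries at ZT24 and ZT4 it was 8.

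The other called features carry trex names, a term left without explanation by the labels. Of 8720 tested, 67 were higher and 41 lower in long day at ZT20, so that with miR169f-3p 68 features were higher (0.767% of all features) and 41 lower (0.462%). Without TMM factors 168 were higher and 38 lower. The majority turned to the lower side under other settings: 60 were higher and 83 lower with only the groups compared, 104 and 175 with the 9 ZT20 libraries, 30 and 50 without a filter, and 39 and 42 with a filter of 1 CPM in 27 libraries. It also turned without SD A, to 9 higher and 16 lower, and without SD B, to 11 and 13. The number called rested on single libraries: without LD A, B or C it was 17, 34 or 58, and without SD A, B or C it was 25, 24 or 34, in place of 109. The median absolute log2 fold change was 3.03 in the higher set and 3.00 in the lower set, and most were rare, with median levels of 6.12 and 9.09 CPM.

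The largest rise among features of 10 CPM or more was trex763666, at 120.8, 93.1 and 50.7 CPM in long day and 1.51, 2.51 and 1.73 CPM in short day (log2 fold change 5.49 ± 1.03, adjusted p = 0.00187). trex404813 was at 43.7, 24.2 and 20.1 against 1.51, 2.09 and 2.59 CPM (3.80 ± 0.76, adjusted p = 0.00357). In equinox day both were at short-day levels, trex763666 at 0.993, 0 and 1.67 CPM and trex404813 at 1.32, 2.58 and 2.92 CPM. The largest falls were trex3806, at 0.982, 1.64 and 0.914 CPM in long day and 21.1, 33.0 and 35.4 CPM in short day (-4.58 ± 0.80, adjusted p = 0.000875), and trex5768, at 1.96, 2.87 and 0.914 against 21.8, 40.5 and 22.0 CPM (-3.83 ± 0.65, adjusted p = 0.000743). The single most abundant feature, trex5742, held 13.7% to 22.5% of counts in long day and 28.9% to 33.3% in short day (exact permutation p = 0.1, the smallest possible), and its part in the other values was not tested beyond the scalings above.

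At ZT 4, 8, 12 and 16, in libraries outside the contrast that chose them, most called features had the sign they had at ZT20. Of the 68 higher features 67, 66, 68 and 67 were also higher in long day at ZT 4, 8, 12 and 16, and of the 41 lower features 39, 38, 39 and 38 were lower. Of all features tested, 49.2%, 44.2%, 44.5% and 39.5% were higher at these times and 50.7%, 55.8%, 55.5% and 60.5% lower. At ZT24, whose libraries stood apart as described, 17 of 68 and 17 of 41 kept their sign, against 50.1% of all features higher and 49.9% lower. At all 5 other times together 14 of the 68 were higher and 13 of the 41 lower. The share was 8.71% among all tested features higher at ZT20, called or not, and 25.9% among all those lower at ZT20. At 1 or more other times 55 of the 68 and 22 of the 41 were called in the same direction. Over the same backgrounds, features higher and features lower at ZT20, the shares were 7.54% and 2.69%. Each of these times called few features of its own. Of all features, 0.0113%, 1.07%, 2.45%, 3.36% and 0.507% were called higher at ZT 4, 8, 12, 16 and 24, and 0.113%, 0.293%, 1.03%, 0.552% and 0.147% lower. At ZT20 the equinox-day mean lay between the other photoperiods in 44 of the 68 and 36 of the 41. The features were chosen for the gap between long and short day in these same libraries. A wide gap makes a mean within it likely, and the share over all features was not computed. These counts therefore show nothing about the order of the photoperiods.

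**Figure D4:**
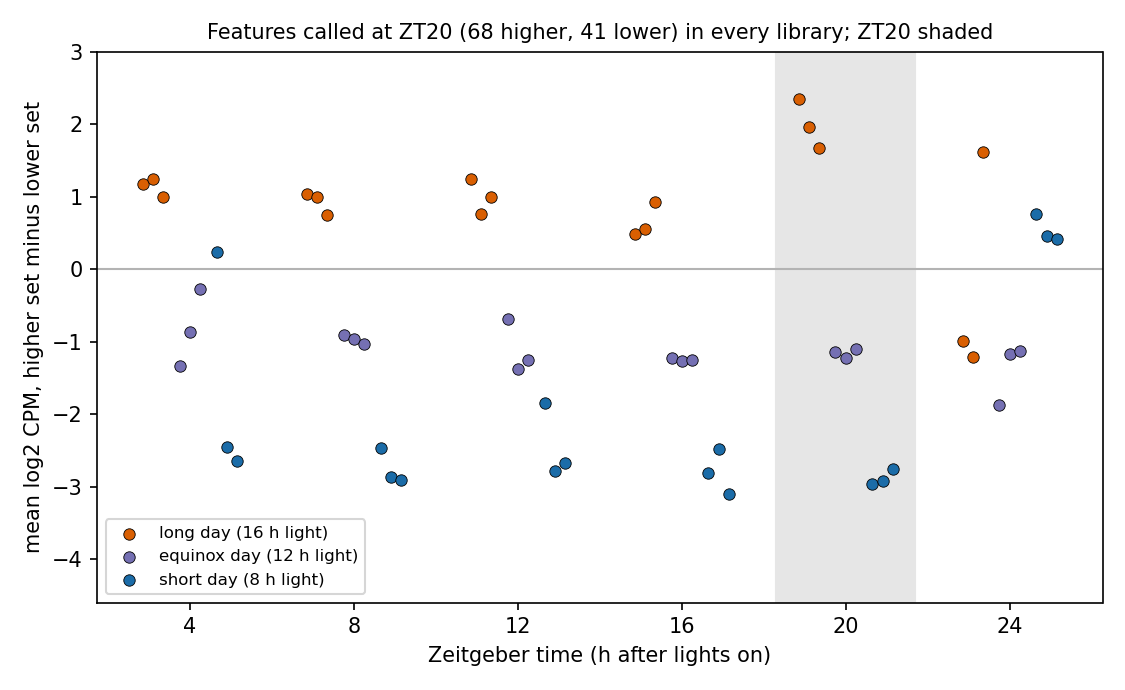
Mean log2 CPM of the 68 features called higher minus that of the 41 called lower at ZT20 (y axis) in every library, by Zeitgeber time in hours (x axis) and photoperiod. Points are libraries; the shaded ZT20 values of long and short day chose the features, and the libraries labelled LD ZT24 A and B, SD ZT24 and SD ZT4 A lie away from the others of their photoperiod.

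The 137 microRNA features too rare to test were at 0 in all 6 libraries in 44 cases, held 1 to 9 counts in total in 73 and 10 or more in 20. Their median total over the 6 libraries was 2 counts and the highest was 30, for miR773a. A count of this size gives no comparison between the groups at this depth.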

How the data were processed

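Small RNA of up to 40 nt was sequenced from pulverized whole seedlings in 54 libraries, 3 per photoperiod and time. The deposited values are read counts per feature, made by the authors with cutadapt 3.4, Bowtie2 2.5.1 and SAMtools, per the submitters' processing notes. Not given in the sources used here were tool settings, the genome build, the counting rule with its use of strand, and the treatment of reads matching several places. The entry named genome, 86.1% of all counts, was left out of totals and tests. The labels name no molecular identifiers, so counts may include amplification copies.

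The model gave each of 18 groups its own coefficient and was run in R 4.3.3 with edgeR 4.0.16 and limma 3.58.1, with TMM scaling and the filterByExpr filter (minimum count 10, minimum total 15). This left 8869 of 223651 features, 149 of 286 microRNAs and 8720 trex features, holding 98.1% of counts. Contrasts used edgeR's quasi-likelihood test at a threshold of 0.05 after Benjamini-Hochberg correction across those features. CPM, counts scaled to a fixed total, are on TMM-scaled totals. The fit was tested on simulated data. Alternatives were other scalings, filters, sample sets and blocks, DESeq2 1.42.0, and leaving out each library. Leaving out 7 libraries and fitting ZT20 alone were chosen after seeing the data. The comparison, lists and naming rule were chosen with earlier results of these data known. Named were the 12 microRNAs with the smallest p (fewer than 12 passed), the 2 most abundant tested members of each list, the 5 with the smallest p against the other times, the 8 most abundant, and the 2 trex features with the largest rise and fall at 10 CPM or more. No replicate pair of the 6 libraries agreed within sampling noise (chi-square per degree of freedom 7.21 to 32.1). Replicate letters did not pair the libraries and were not in the fit.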

Additional observations from a re-analysis of the deposited data

How the results depend on the processing

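Beside the 1 microRNA and 109 features called for long against short day at ZT20, the replicate block (letters A, B and C, whose deviations correlated at -0.33, 0.11 and -0.28, so that they share only a letter) left 1 and 114. With only the groups compared and the replicate block, 1 feature and 0 microRNAs were called at ZT20, 19 microRNAs against short day ZT12 and 1 against equinox day. With only the groups compared and no block, 0 microRNAs were called against short day ZT12. Without TMM factors 206 features were called, and 1 microRNA against equinox day. Against short day ZT12 the number was 8 with DESeq2 size factors, 1 without a filter, 14 with the DESeq2 Wald test and 8 without the 7 libraries that include those standing apart. DESeq2 called 1 against equinox day. Fitting and adjusting over the microRNAs alone gave 3 at ZT20 (miR169f-3p and both miR395 features), 49 against short day ZT12 and 1 against equinox day. The 9 ZT20 libraries alone gave 279 features, 104 higher and 175 lower. Leaving out each library in turn gave 17 to 58 features, 1 to 1 microRNAs and a difference in microRNA share of 0.590 to 1.42 percentage points. The share difference was 1.09 points, and -0.185 with the genome entry. miR169f-3p was past the threshold in 17 of 18 alternatives. The cause of these shifts was not tested.

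Of the named features 35 of 46 kept their sign throughout. miR167c-3p, at 0.01, fell below 0 under 10 settings, to -0.0060 with the replicate block, -0.11 with only the groups compared, -0.098 with these and the block, -0.074 with DESeq2 size factors and with the DESeq2 Wald test, -0.025 with totals that include the genome entry, -0.11 without a filter, -0.13 with a filter of 1 CPM in 27 libraries, -0.046 with microRNAs alone and -0.11 with ZT20 alone. When 1 library was left out it ranged from -0.30 to 0.067. Without TMM factors miR172a/b-3p was at 0.023, miR159a 0.26, miR161.1 0.16, miR162a/b-3p 0.16, miR158a-3p 0.11, miR3932b-5p 0.19 and miR391-3p 0.11. Leaving out 1 library gave ranges of -0.62 to 0.37 for miR172a/b-3p and -0.63 to 0.018 for miR167a/b-5p, both positive without SD A, -0.020 to 0.27 for miR159b-3p, negative without LD B, and -0.061 to 0.22 for miR846-3p, negative without LD B or SD A. Depth of 1744535 to 2994808 counts and 3 libraries a group limit the comparison, and features under 10 counts a library could show large changes only.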
